A study of Mus musculus with 8 samples.

Results

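The genes whose products write, copy, read and erase DNA methylation were examined for their own methylation in mouse liver. The set held 10 genes, chosen for these roles: Dnmt1, Dnmt3a, Dnmt3b, Dnmt3l and Uhrf1 on the writing side, Tet1, Tet2, Tet3 and Tdg on the erasing side, and the reader Mbd2. A CG was counted with a gene if it lay in the gene body or within 5 kb of it on the mm9 assembly. By this rule 1146 CGs, each strand counted apart, had at least 10 reads in at least 1 mouse, of 1411453 such CGs in the whole series. Only 109 of the 1146 had 10 reads in all 8 mice, of 176951 in the series.

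DNA methyltransferases place a methyl group on the cytosine of CG dinucleotides. DNMT3A and DNMT3B set new marks, DNMT3L stimulates them in germ cells and has no catalytic activity of its own, and DNMT1 copies marks after replication with the help of UHRF1, which binds hemimethylated CGs. TET enzymes oxidize methylcytosine, TDG excises oxidized forms, and MBD2 binds methylated CGs. Most promoters of genes used in many tissues lie in CG-rich islands that are free of methylation, whereas promoters of many germline genes are methylated in somatic tissue.

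Libraries of reduced representation bisulfite sequencing (RRBS), which reads CGs near the sites where MspI cuts, were made from the livers of 8 mice, with no treatment. The mice were 1 female and 1 male each of C57BL/6J (B6), of DBA/2J (DBA) and of both F1 crosses, BXD from a B6 mother and DXB from a DBA mother. All were 16 weeks old and had been fasted for 16 h. Whole liver is a mixture of cell types, so that a level between the extremes may come from a share of cells or a share of chromosomes, and no expression values were used to check the tissue.

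Libraries differed in depth and 4 stood apart. At CGs with 10 reads the mean coverage lay between 51.6 reads in the DXB male and 96.3 in the BXD male. Of the genes' CGs, the DBA male had 10 reads at 426, the fewest, and the B6 female at 930, the most. The BXD female and both DXB libraries listed between 5056771 and 5060143 cytosines each, and the other 5 libraries between 5186044 and 10492039. In the B6 male, 83.9% of the calls sorted by SNP carried B6 alleles, against 99.7% in the B6 female. Near these genes, however, sorted CG calls of the B6 male carried DBA alleles in 0% within 5 kb of Dnmt3a and Tdg. Within 500 kb the share was 0% at Tet2, Uhrf1 and Mbd2, 0.451% at Tdg and 2.59% at Dnmt3b. The 0% values rested on 105 calls at Dnmt3a, 531 at Tdg, 671 at Tet2, 381 at Mbd2 and only 36 at Uhrf1. Calls on the same read are not independent. Dnmt1, Dnmt3l, Tet1 and Tet3 had no sorted calls within 500 kb in any mouse. Methylation outside CGs within the genes, which includes unconverted cytosines, lay between 0.436% in the B6 male and 1.35% in the DXB female.

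Levels are given for CGs with at least 10 reads as the mean over the mice that reached them, and regions as the mean over their CGs. A start window runs from 1000 bases before to 500 bases after a transcription start. Because a mouse can lack some CGs of a window, values of single mice may rest on different CGs. The starts came from GENCODE, and those of RefSeq were placed on mm9 by their sequence for 9 of the 10 genes.

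The methylation state of the starts is the main feature of these genes, and the sequences that carry the contrast are shown first. They are read from the NCBIM37 (mm9) reference in the direction of the gene, and capitals mark CGs with at least 10 reads in at least 1 mouse.
Dnmt3l, methylated, chr10:77505211-77505401, plus strand: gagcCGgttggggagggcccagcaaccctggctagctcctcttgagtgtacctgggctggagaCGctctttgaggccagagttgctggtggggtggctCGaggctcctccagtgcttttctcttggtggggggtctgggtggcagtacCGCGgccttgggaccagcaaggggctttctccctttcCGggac
Dnmt3l, unmethylated, chr10:77506326-77506431, plus strand: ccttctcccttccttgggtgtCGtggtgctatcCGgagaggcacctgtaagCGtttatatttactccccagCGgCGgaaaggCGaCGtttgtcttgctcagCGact
Dnmt3a before the internal start, chr12:3891494-3891743, plus strand: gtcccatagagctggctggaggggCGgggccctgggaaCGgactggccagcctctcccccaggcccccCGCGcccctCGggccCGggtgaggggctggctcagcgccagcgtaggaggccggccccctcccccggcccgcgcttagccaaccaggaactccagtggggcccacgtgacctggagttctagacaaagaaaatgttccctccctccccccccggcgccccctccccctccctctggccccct
Tet1 before the RefSeq start, chr10:62350073-62350322, minus strand: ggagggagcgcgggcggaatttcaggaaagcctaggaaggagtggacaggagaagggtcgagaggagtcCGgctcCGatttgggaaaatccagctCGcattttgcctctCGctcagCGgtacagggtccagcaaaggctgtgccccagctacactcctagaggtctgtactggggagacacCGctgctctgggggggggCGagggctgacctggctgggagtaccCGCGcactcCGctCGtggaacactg
The methylated Dnmt3l stretch held 6 CGs over 191 bases, and its measured sites averaged 72.7%. The unmethylated stretch, about a kilobase further into the gene, held 8 CGs over 106 bases, and its sites averaged 4.86%. The stretches before the internal Dnmt3a start and the Tet1 start averaged 4.47% and 1.53%.

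Among the 8 genes with at least 3 measured CGs at the GENCODE start, Dnmt3l was the gene with a methylated promoter. Its start window had 7 measured CGs, and their mean level was 72.7%, higher than 93.7% of the 12905 promoters with at least 3 measured CGs. Every measured CG lay 183 to 365 bases after this start, at 77505032, in the first intron. That intron also holds a coding exon of Aire on the opposite strand. Upstream of the start no CG of the window had 10 reads. Dnmt3l spans chromosome 10 from 77504692 to 77526367 on the plus strand, so the annotated gene begins upstream of the start used. Other GENCODE starts within 1000 bases of the main one were not examined, and the level may depend on the start chosen. Of all promoters, 80.7% were below 10% and 8.97% were above 50%.

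The 3 CGs of this window with 10 reads in all 8 mice differed from each other more than the mice did. At 328 bases after the start females had 53.7% in B6, 61.7% in DBA, 54.0% in BXD and 62.0% in DXB, and males had 53.4%, 51.6%, 55.6% and 54.5% in the same order. At the neighbouring CG, 330 bases after the start, the lowest level was 74.8% in the BXD male and the highest was 88.0% in the DXB female. The CG at 365 bases was at 92.6% in the B6 male, the lowest, and at 100% in the DBA male, the highest, which had 31 reads. The order of the 3 CGs was the same in every mouse. All 3 were read on the minus strand, and the first and second lie within the CGCG of the methylated sequence printed above.

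The mean of these 3 CGs was 76.0% and 74.4% in B6, 81.3% and 77.4% in DBA, 76.2% and 75.7% in BXD and 81.4% and 75.1% in DXB, females first. It was 77.2% ± 2.70 over all mice (SD, n = 8). The female was higher in each strain and cross. The ranges of females and males overlapped, with a difference of 3.04 points (SE 1.27, limma, adjusted p = 0.807). The change per DBA copy was 2.07 points (SE 0.896, limma, adjusted p = 0.869).

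The next measured stretch was low, with no measured CG in between. The block of 24 CGs between 1080 and 1395 bases after the Dnmt3l start had a mean level of 5.80%. The centre of this block lay 48 bases from a start of Aire, an overlapping gene on the opposite strand that drives display of tissue antigens in the thymus. The DBA female was lowest over this block, at 4.38%, and the BXD male highest, at 8.97%, each on 17 CGs. Further into Dnmt3l, 8 CGs upstream of the internal start at 7555 bases were at 75.1%, and 6 CGs about 15 kb from the start were at 95.8%. Of the 4 blocks of at least 5 CGs in Dnmt3l, the block at the Aire start was the single block below 10%.

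**Figure D1:**
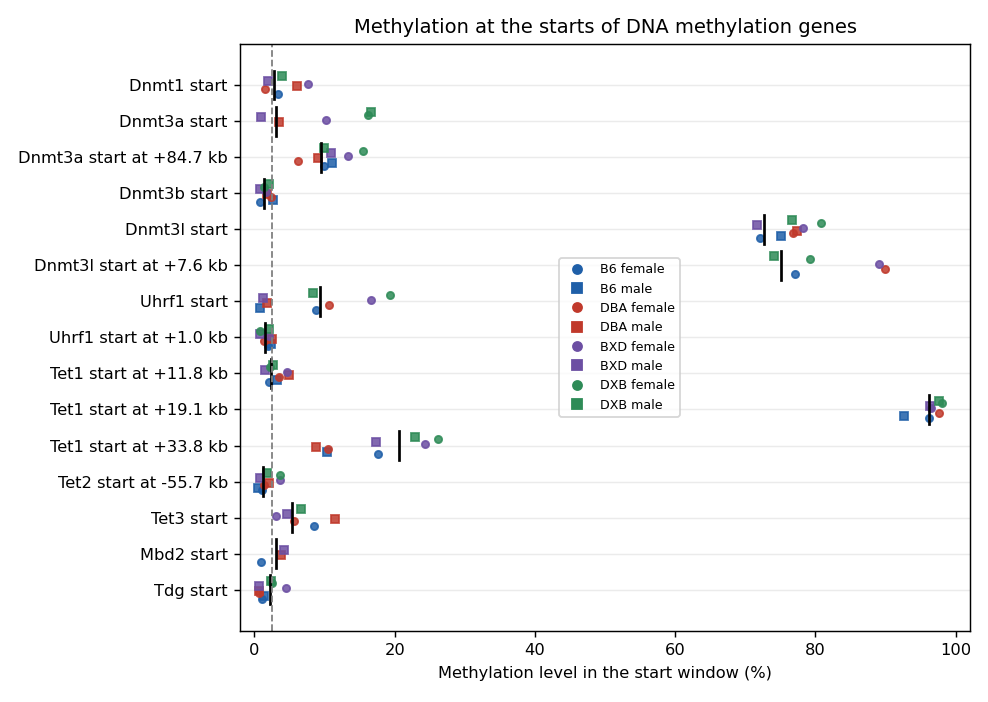
Methylation level (%) in windows of the GENCODE main starts, of distant RefSeq starts and, in Tet1, of other GENCODE starts with at least 3 measured CGs, 1 point per mouse with at least 3 measured CGs (circles, females; squares, males; colours, strain or cross), and black bars for the mean over all measured CGs. The dashed line marks the median of 12905 promoters, 2.53%; both Dnmt3l starts and the Tet1 start 19104 bases into the gene have means above 70%, the Tet1 start at 33814 bases has 20.6%, and the means of the other starts plotted lie below 10%.

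The main starts of the other methyltransferases were low. Dnmt3b, the second of the enzymes that set new marks, had 1.41% over 41 CGs. Over its 8 CGs read in all mice, the DBA female was lowest, at 0.758%, and the B6 male highest, at 3.14%. Dnmt1, the maintenance enzyme, had 2.83% over 25 CGs, and its partner Uhrf1 had 9.30% over 18 CGs. The window of the second RefSeq start of Uhrf1, 992 bases further on, had 1.44% over 62 CGs. The Uhrf1 value held higher CGs upstream and lower CGs inside the gene: at -783 bases a single CG had 56.1%, at -550 to -504 bases 6 CGs had 12.8%, and from 405 to 478 bases 10 CGs lay between 0% and 11.96%. GENCODE also lists Uhrf1 starts with retained introns at 9342 and 14705 bases, where 6 and 16 CGs had 92.1% and 94.8%. In the Dnmt1 window the B6 male had 27.1%, on only 2 CGs with 10 reads. Dnmt1 lies on chromosome 9 from 20711650 to 20757317 (minus strand), Dnmt3b on chromosome 2 from 153475186 to 153513466 (plus strand) and Uhrf1 on chromosome 17 from 56442744 to 56462909 (plus strand).

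Dnmt3a has a distal start for its long form and an internal start for its short form. The means of both were below 10%, with a gradient at the internal start. The gene spans chromosome 12 from 3806007 to 3914443 on the plus strand. Its GENCODE start window had 3.06% over 15 CGs, all at -497 to -392 bases, and none of them had 10 reads in the B6 mice or the DBA female. The BXD female, the DXB female and the DXB male had 10.3%, 16.2% and 16.7% on 3 CGs each. The DBA male had 3.43% on 6 and the BXD male 0.926% on 9. The window of the internal start, 84714 bases into the gene, had 9.49% over 36 CGs, higher than 80.2% of promoters. Mice lay between 6.26% in the DBA female and 15.5% in the DXB female. In this window, 27 CGs before the start were at 5.99%, and the 9 CGs just after it, at 84780 to 84937 bases of the gene, were at 20%. Of other GENCODE starts within Dnmt3a, that of a transcript subject to nonsense-mediated decay at 42605 bases had 89.97% over 12 CGs, and one marked as incomplete at 99786 bases had 87.3% over 7 CGs. Another incomplete start, at 88563 bases, had 71.8% over 4 CGs, but this mean joins separate libraries. The B6 female, the DBA female and the BXD male were at 97.4%, 98.1% and 95.8% there, and the BXD female, the DXB female and the DXB male, the libraries with fewer cytosines, at 47.3%, 42.3% and 44.4%.

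At 3 of the CGs after the internal Dnmt3a start, read in all mice, the DBA parents were lowest. In the parents the level was 22.6% and 26.6% in B6, female first, and 12.04% and 14.3% in DBA. In the F1 mice it was 26.8% and 25.2% in BXD and 29.0% and 24.2% in DXB. The F1 mice lay within or above the range of B6 rather than between the parents. How many of all regions show such an order of mice was not counted. By limma over 17803 gene regions, neither the change per DBA copy (-5.72 points, SE 2.18, adjusted p = 0.752) nor the difference between F1 mice and parents (7.43 points, SE 1.55, adjusted p = 0.290) passed. Of all regions, 0.534% were called for DBA dose and 0.00562% for F1 against parents. The unadjusted p from limma was 0.0325 for dose and 0.00227 for F1 mice. Without the B6 male these 3 CGs were the same, but 2 CGs near another Dnmt3a start, at 100023 and 100030 bases with means of 87.8% and 93.6%, also qualified. The mean over the 5 CGs of Dnmt3a's starts other than the main one was then 49.5%.

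Among the erasers, Tet1 depended on which start was taken. The gene lies on chromosome 10 from 62267318 to 62361866 on the minus strand. Its GENCODE start had only 2 measured CGs, at 66.5% and 96.2%. The RefSeq start lies 11794 bases further on, and its window had 2.42% over 44 CGs, with mice between 1.48% and 4.99%. Another start at 19104 bases lay in coding sequence and had 96.3% over 11 CGs. Before a start of a noncoding transcript at 33814 bases, 18 CGs had 20.6%, with single CGs from 0.484% to 87.3%. This stretch therefore held low and high CGs side by side. The DBA male had 8.71% on 6 CGs and the DXB female 26.2% on 11 CGs, which were not all the same CGs. At the 5 CGs of the stretch read in all mice, levels lay between 4.13% in the DBA female and 8.02% in the B6 male.

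Tet2 and Tet3 were low at their RefSeq starts. The outer start of Tet2, shared by GENCODE and RefSeq, had 1.28% over 71 CGs, with mice between 0.533% and 3.61%. It lies at -55719 bases from the start of the transcript with the longest coding sequence, in whose window no CG had 10 reads. Tet2 is on chromosome 3 from 133126643 to 133207354 and Tet3 on chromosome 6 from 83312367 to 83391672, both on the minus strand. Tet3 had 5.37% over 20 CGs. Tdg, the glycosylase gene on chromosome 10 from 82092573 to 82113544 (plus strand), had 2.18% over 69 CGs, and the reader Mbd2, on chromosome 18, had 3.11% over 20 CGs. None of these Mbd2 CGs had 10 reads in more than 2 mice, and 1 of them, at 34.2%, rested on the DBA male alone. The Tdg and Mbd2 windows lay at the 41.8th and 59.4th percentile of all promoters, whose median was 2.53%.

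**Figure D2:**
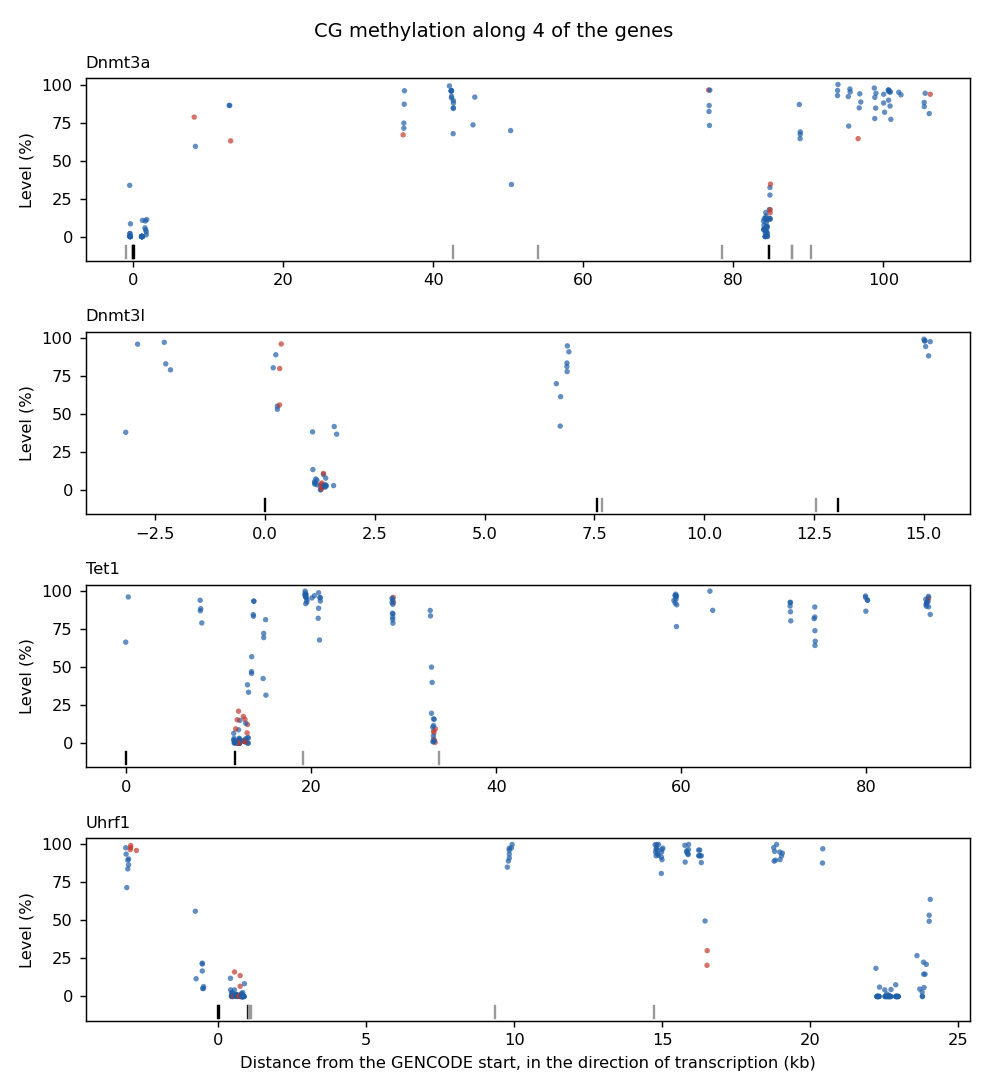
Level of each measured CG (%, mean over mice with 10 reads) against the distance from the GENCODE start (kb) in Dnmt3a, Dnmt3l, Tet1 and Uhrf1; red points have 10 reads in all 8 mice. Black ticks below 0 mark GENCODE main and RefSeq starts and grey ticks other starts. Low CGs lie at some starts, at the Aire start in Dnmt3l and beyond the 3′ end of Uhrf1, and high CGs lie at other starts.

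Bodies of the genes were largely methylated. Of 588 body CGs outside the GENCODE start windows of their own gene, 63.9% were at 80% or above and 19.4% below 10%. Of body CGs of all protein-coding genes, the shares were 50.03% and 21.7%. Over all regions, starts and flanks included, 41.0% of the genes' CGs were at 80% or above, compared with 29.6% for all protein-coding genes. The mix of regions differed, with 217 of 1146 CGs in promoters here and 388606 of 1044221 for all genes. The shares at 80% or above were 1.84% and 2.00% in promoters, 28.3% and 24.3% at other starts, and 20.5% and 38.6% in flanks, this set first. The classing was not alike, however. A CG of this set was classed by its own gene only, so that CGs at Aire and Kdm4b starts counted as body and flank. Among all genes, a CG in the start window of any gene counted with that start. The shares by region are therefore not a like comparison. Counted over all regions, Tet3 had 118 of 161 CGs at 80% or above, the highest share of the set. Over its 17 body CGs read in all mice the level was 95.9% ± 0.995 (SD, n = 8). Dnmt1 had 62 of 94 over all regions and Tet2 27 of 106. The remaining genes had 51 of 143 in Dnmt3a, 23 of 77 in Dnmt3b, 16 of 53 in Dnmt3l, 60 of 195 in Uhrf1, 75 of 173 in Tet1, 18 of 54 in Mbd2 and 20 of 90 in Tdg. RRBS picks CG-rich fragments, so these shares describe the fragments read and not the whole gene.

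Grouped by position, with a new block after a gap over 150 bases, the CGs formed 151 blocks, of which 69 had at least 5 CGs. Of these 69, 20 were below 10%, 36 were at 80% or above and 13 lay between. Within 1500 bases of a start of the gene itself lay 16 of the 20 low blocks, among them the Dnmt3l block, which is closer to the Aire start. The same count was not made for the 36 blocks at 80% or above or the 13 between. Some starts given above had high CGs, so the 16 do not show that low blocks favour starts. The other 4 included 3 blocks beyond the 3′ end of Uhrf1, at 1.90%, 0.516% and 0.592%, whose centres lay 460, 117 and 162 bases from starts of Kdm4b, a histone demethylase gene. The remaining low block lay 1529 bases from a start of Dnmt3a. On the 5′ side, 10 CGs at a start of Arrdc5 near Uhrf1 had 90.8%. Among the intermediate blocks, 6 CGs in an intron of Dnmt1, 30857 to 31102 bases from its start, had 43.3%, and mice lay between 34.2% and 65.6%.

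Promoter levels of related genes give the scale for the set, from lists chosen for function. Of 30 readers and cofactors, 27 had 3 measured CGs, with a median of 2.32%. In this list 21 were below 10% and 3 above 50%. The lowest were Mbd3, a subunit of the NuRD complex, at 0.648%, Hells at 0.811%, Gadd45a at 1.22%, Idh1 at 1.24% and Ahcy at 1.35%. The highest were Smug1, a DNA glycosylase gene, at 92.9% over 4 CGs, and Dppa3, expressed in oocytes and germ cells, at 88.2% over 6 CGs. Zbtb38 at 60.1%, X-linked Ogt at 16.9% and Gnmt, a liver methyltransferase, at 11.9% came next. Levels in this list and the next were taken at the GENCODE main start, and RefSeq starts of these genes were not examined.

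Germline genes formed the other end. Of 20 on the list, 15 had 3 measured CGs, with a median of 86.3%. In this list 13 were above 50% and 1 below 10%. The highest were Rpl10l at 93.8%, Asz1 at 91.5%, Taf7l at 90.7%, Tex101 at 87.7% and Piwil2 at 87.5%. The lowest were Cpeb1 at 1.81%, Tdrd1 at 37.6%, Mael at 71.3%, Mov10l1 at 74.7% and Ddx4 at 83.0%. Of the writers and erasers, 8 had 3 measured CGs at the GENCODE start, with a median of 3.08%, and Dnmt3l alone was above 50%. Its 72.7% lay between Mael and Mov10l1. The germline range, from 1.81% to 93.8%, also held most of the other writers and erasers.

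**Figure D3:**
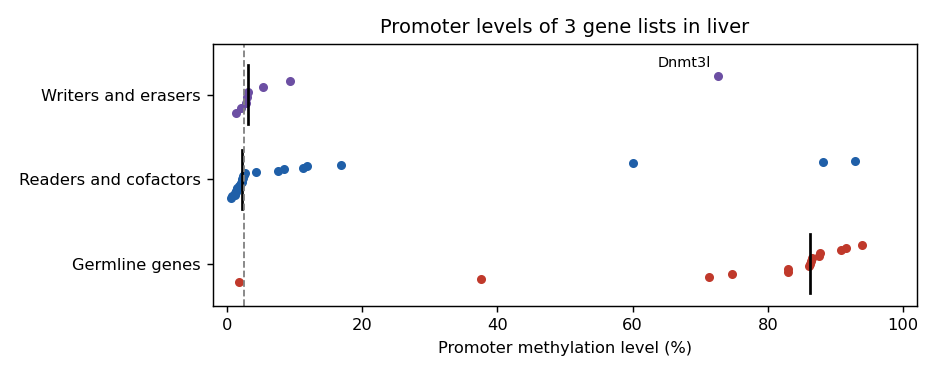
Promoter methylation level (%) of the writers and erasers (8 genes), readers and cofactors (27) and germline genes (15); each point is a gene and each black bar the median of its list. The dashed line is the median of all promoters, 2.53%. Dnmt3l is at 72.7%, and the germline genes have a median of 86.3%. The germline genes run from 1.81% to 93.8%, a range that also holds most of the other writers and erasers.

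The Dnmt3l start window was poor in CGs. Its ratio of observed to expected CGs was 0.208, compared with a median of 0.290 in promoters above 50% and 0.689 in those below 10%. The 15 germline promoters had ratios from 0.375 to 0.814, all above Dnmt3l, and Smug1 had 0.225. The Tet1 RefSeq window had 0.607. In 32851 RefSeq promoters of 300 bases, CACGTG, which is its own reverse complement, was present in 7.15% and in 3 of the 16 promoters of the set, 1 each of Dnmt3a, Dnmt3l and Tdg, and its letters stand in the Dnmt3a stretch printed above. GGGCGG, searched on both strands, was present in 35.7% of promoters and in 12 of the 16. GCGGGAAA, searched on both strands, was present in 1.07% of promoters and in 0 of the 16.

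To compare the strains, B6 and DBA parents were contrasted within each sex at CGs with 10 reads in both mice, by exact 95% binomial intervals that each excluded the other mouse's level and a difference above 50 points. In the female parents 1 of 696 CGs was called, against 0.549% of 887174 CGs in the series. In the male parents 0 of 221 CGs were called, against 0.423%. Fisher's exact test with adjustment and the same 50-point minimum called 1 of 696 CGs in females (0.508% of all) and 0 of 221 in males (0.384% of all). With a difference above 30 points, 4 of 696 CGs were called in females (1.62% of all) and 1 of 221 in males (1.55% of all). The levels of the parents were within 10 points at 90.4% of these CGs in females and 87.8% in males, compared with 84.96% and 84.0% of all CGs. With 1 mouse on each side, these counts rest on reads and not on mice.

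The called CG lay in an intron of Tdg, and its surroundings are shown because the CGs next to it stayed methylated on both alleles. GENCODE places starts of noncoding Tdg transcripts nearby, 14165 and 14579 bases from the main start. The called cytosine is at chr10:82107091 on the plus strand, 14487 bases from the start, and is the fourth CG from the left.
Tdg, chr10:82107027-82107142, plus strand: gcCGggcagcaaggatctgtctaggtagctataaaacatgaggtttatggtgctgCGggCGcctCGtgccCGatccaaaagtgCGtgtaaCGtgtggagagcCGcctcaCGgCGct
The level at this CG was 96.3% of 81 reads in the B6 female and 94.4% of 90 reads in the B6 male. It was 0% of 25 reads in the DBA female, with an exact upper limit of 13.7%, and 0% of 6 reads in the DBA male. In the BXD male it was 56.4% of 133 reads, and the other F1 libraries had no read there. Sorted by SNP, the B6 reads of the BXD male were at 97.4% (95% exact interval 90.9% to 99.7%, 77 reads) and the DBA reads at 0% of 53 reads, with an exact upper limit of 6.72%. By the limit of 3 counts, the 0% allows up to 12% in the DBA female and 5.66% on the DBA reads of the BXD male. The intervals and limits cover counting error only.

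The nearest Tdg CGs on the same strand did not share this split. In the BXD male the CG 5 bases before it, at 14482 bases, was at 96.1% on B6 reads and 98.1% on DBA reads. The CG 6 bases after it, at 14493 bases, was at 97.4% and 96.2%. A base difference in DBA that removes the CG would also read as 0%, and this was not tested. B6 and DBA chromosome sets were also compared over parents and F1 mice by the study's test on levels, with unadjusted p below 0.05 and a difference above 50 points. With 10 sorted reads required in 3 or more sets per strain, 0 of 2 CGs were called, neither with an unadjusted p below 0.05, against 5.02% of 21486 CGs. A minimum of 4 sorted reads allowed 17 CGs, of which 1 was called, the same Tdg CG, against 4.74% of 31527 CGs. That call rested on 3 B6 and 3 DBA sets. The BXD male stood on both sides, and the reads were those given above, so it is not a separate result.

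**Figure D4:**
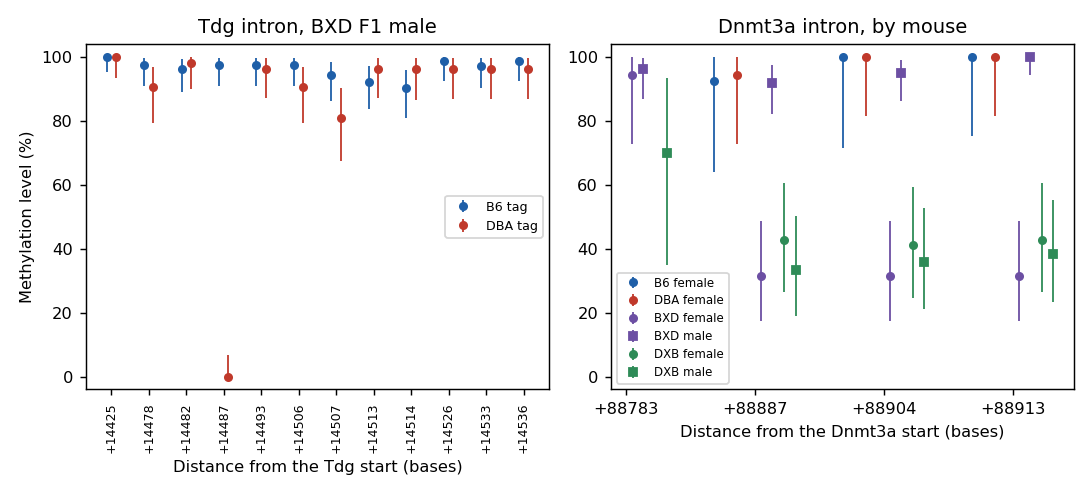
Left, level (%) at CGs of the Tdg intron in the BXD male for reads with B6 and DBA SNPs against distance from the Tdg start; the DBA reads are at 0% at +14487 and above 80% elsewhere. Right, level (%) at CGs of a Dnmt3a intron in mice with 10 reads; at the 3 right CGs the BXD female and the DXB mice lie between 31.6% and 42.9% and the others at 91.9% or above. Bars are exact 95% binomial intervals.

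Above 30 points but not 50, B6 and DBA parents differed at CGs of Tdg, Mbd2, Dnmt1 and Tet3, each time 1 mouse against 1. A Tdg CG at 14507 bases, on the other strand, had 94.9% in the B6 female and 62.5% of 16 reads in the DBA female, and in the BXD male it had 94.4% on B6 reads and 80.8% on DBA reads. An Mbd2 intron CG, 5614 bases from the start, had 62.7% in the B6 female and 25% in the DBA female, and 30% to 35.3% in the BXD female and both DXB mice. Its neighbours at 5571 and 5612 bases differed in the same direction, with 45.1% and 41.2% in the B6 female and 29.2% and 20.8% in the DBA female. All these CGs had 51 reads in the B6 female and 24 in the DBA female. They are close enough to share reads, so they are not independent. The B6 male had 0% of 5 reads at each. On the other strand, the B6 and DBA females had 6.25% and 11.1% at 5826 bases, and 20.8% and 11.1% at 5853 bases. A Dnmt1 intron CG at 31102 bases had 0% of 14 reads in the B6 female and 33.3% in the DBA female, but 43.6% of 55 reads in the B6 male. At its neighbour at 31059 bases the B6 female was also lower, with 15.4% of 13 reads and 38.1% of 21 reads in the DBA female, and the B6 male had 65.5%. The Dnmt1 difference thus did not hold across the B6 mice. A Tet3 intron CG at 20523 bases had 90.9% in the B6 male and 60.0% of 15 reads in the DBA male, and 88.1% and 81.2% in the females.

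Parental differences were averaged over the sexes in which both parents had 10 reads. By this average, the greatest difference at a CG stayed below 30 points in the other genes and in Tet3. Each rested on 1 sex, males in Dnmt3a and females in the others. The difference was 28.6 points in a coding exon of Tet2, where B6 was lower in females with 14 and 10 reads. It was 27.3 points before the start of Uhrf1, where B6 was lower, with 0% of 14 reads in the B6 female and 27.3% of 11 in the DBA female. In Dnmt3b it was 25.3 points at 345 bases after the start, with 9.68% in the B6 female and 35% in the DBA female. The males there had 33.3% of 6 reads in B6 and 34.4% of 61 reads in DBA. In Dnmt3a the CG had 100% of 10 reads in the B6 male and 75% in the DBA male. In Tet1 the difference was 22.1 points at 13554 bases, where DBA was higher, and in Dnmt3l 16.1 points upstream of the gene, also with DBA higher. In a coding exon of Tet3 it was 20 points, with B6 higher, on 15 reads in each female. The males there had 100% in both strains, of 6 reads in B6 and 19 in DBA.

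**Figure D5:**
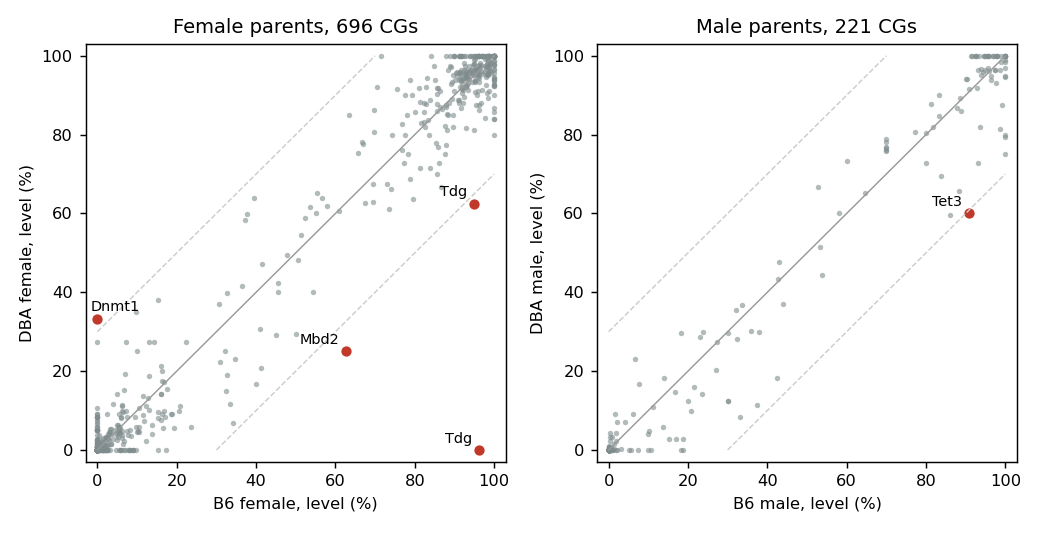
Methylation level (%) in the B6 parent (horizontal) against the DBA parent (vertical) of the same sex at the genes' CGs with 10 reads in both mice, 696 in females and 221 in males. Dashed lines mark 30 points; the red CGs beyond them are 4 in females, in Dnmt1, Mbd2 and Tdg, and 1 in males, in Tet3.

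No CG of the set was called between the sexes. By the study's test on levels, with p below 0.001 and a difference above 20 points, 0 of 321 CGs were called, against 0.148% of 452783. At an unadjusted p below 0.05 stood 7 of the 321, which is 2.18%, compared with 4.12% of all CGs. With adjusted p below 0.05 and the same 20-point minimum, the quasi-binomial model called 0 of 321 (0.0252% of all) and limma 0 of 109 (0.0469% of all). At an unadjusted p below 0.05 stood 16 of 321 CGs in the quasi-binomial model, 4.98% compared with 7.24% of all, and 4 of 109 in limma, 3.67% compared with 5.12%. By DBA dose, limma called 0 of 109 CGs, against 0.176% of all. At an unadjusted p below 0.05 stood 7, which is 6.42%, close to the 6.19% of all CGs.

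No region of the set was called either. Of the 11 regions with at least 3 CGs in all mice, limma called 0 by sex (0.702% of 17803 called), 0 by DBA dose (0.534%), 0 between F1 mice and parents (0.00562%) and 0 for the interaction of sex and dose (0%). At an unadjusted p below 0.05 stood 2 regions for sex, 1 for dose, 2 for F1 mice and 0 for the interaction, which is 18.2%, 9.09%, 18.2% and 0%, compared with 5.99%, 5.75%, 9.18% and 3.16% of all regions. The 2 for sex were the Dnmt3l start, above, and the Dnmt3a body, where females exceeded males by 7.38 points (SE 2.62, adjusted p = 0.703). The Dnmt3a body was at 82.3%, 79.4%, 84.8% and 76.7% in the B6, DBA, BXD and DXB females and at 70.1%, 69.3%, 78.6% and 75.7% in the males of the same order. The female was higher in each strain and cross, while the ranges of the sexes overlapped. The Tet1 body, which here takes in 10 CGs of the RefSeq start window, gave an F1 minus parents difference of -3.47 points that did not pass (SE 1.09, limma, adjusted p = 0.460). Its F1 mice were at 14.8% to 17.0% and the parents at 17.7% to 21.5%, and how many of all regions show such a gap was not counted. Without the DBA male 53 CGs of the Tet1 body qualified and the mean rose from 17.7% to 43.3%. The Dnmt3b body was at 27.9% to 34.4% over the 7 CGs read in all mice, while the mean over its 36 CGs with 10 reads in any mouse was 67.4%. The remaining regions were the Uhrf1 second start at 0.824% to 4.97% and the Uhrf1 flank at 96.4% to 98.4%, besides those given above. Leaving out the 3 F1 libraries that stood apart gave 0 calls among 15 regions by sex and DBA dose (0% and 0.00968% of all). Of 20655 regions of the whole series, only 0 and 2 were called then, so these counts of 0 say little. The F1 arm then held 1 mouse, so that its count says nothing.

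The spread between mice was smallest at low CGs. Among the 109 CGs read in all mice, the median SD over the 8 mice was 0.816 points for 49 CGs below 10%, 2.43 points for 34 CGs at 80% or above and 8.99 points for 26 CGs between. Over all CGs of the series the medians were 1.06, 3.57 and 8.83 points.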

How the data were processed

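Liver RRBS libraries of 8 mice were used. Alignment by the authors used BS Seeker and the mm9 assembly, kept unique hits and sorted reads with a SNP to the B6 or DBA chromosome. The authors deposited, per mouse and read class, raw counts of methylated and of unmethylated calls for every cytosine, and the level as a fraction. Counts of all classes were added, and levels were recomputed. The authors' own comparison tables, with means, differences and p-values, were not used.

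The genes, gene lists and tests were chosen with earlier results of these data known. All genes of the set are named, with CGs called in a comparison, Dnmt3l start CGs read in all mice, and the 5 highest and lowest promoters of each list. The CG of each gene with the greatest parental difference is also named. That difference was averaged over the sexes in which both parents had 10 reads, which was 1 sex in each case. The 3 adjacent Dnmt3a CGs of the closing section were chosen after their values were seen. In GENCODE the main start belongs to the transcript with the longest coding sequence. Sequences are from NCBIM37, and motifs from RefSeq promoter sequences of 300 bases, placed on NCBIM37 by exact match.

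Parents were compared by exact 95% binomial intervals at 10 reads, sexes by the study's two-sample test on levels with at least 3 mice of each sex, and DBA dose, sex, F1 status and interaction by limma on levels with Benjamini-Hochberg adjustment over all CGs or regions. Strain and sex groups hold separate mice. Coverage of 10 reads moves a level in steps of 10 points. Rules were tested on simulated data. Alternatives covered read minimums, strands, scales, tests and each mouse left out. Python 3.11.15, scipy 1.17.1, R 4.3.3, limma 3.58.1 and samtools 1.23.1 were used.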

Additional observations from a re-analysis of the deposited data

Results flagged for a closer look

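In groups of 4 mice, 44 sets of region levels were checked for a mouse far from the others, and chance alone marks about 1 in 20. The Dnmt3l start had 81.4% in the DXB female, with the other F1 mice between 75.1% and 76.2%, on 3 CGs. In the body of Dnmt3l, at 6 CGs near the Aire start, the BXD female had 3.84%, with the other females between 2.97% and 3.08%, a gap of less than 1 point. Without the DBA female 12 CGs of the Dnmt3l body qualified, with a mean of 49.96%, so these 6 CGs describe the Aire start and not the rest of the body.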

How the results depend on the processing

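Between the female parents, the count of 1 call (the Tdg CG) became 2 of 889 at a minimum of 5 reads (0.681% of all CGs), with a Dnmt3a CG of 7 DBA reads added, 0 of 264 at 50 reads (0.477%) and 4 above 30 points. Between the male parents it rose from 0 to 2 of 383 at 5 reads (0.682%), the Tdg CG and a Dnmt1 CG of 5 B6 reads, and to 1 above 30 points. Between chromosome sets it rose from 0 to 1 of 17 at 4 sorted reads (4.74%). The counts by sex, DBA dose, F1 status and interaction remained 0 under every alternative run. Without the 3 F1 libraries, however, the F1 arm holds 1 mouse, and its 0 says nothing. Only 0 and 2 of 20655 regions of the series were then called by sex and by DBA dose, so the 0 for regions says little there too. The mean start level over Dnmt3b and Dnmt3l was 39.4%, and 37.0% with CGs read in any mouse, an alternative chosen after seeing the data. Leaving out each mouse gave 39.1% to 39.7%. The mean of starts other than the main one in 3 genes was 10.2%, became 21.3% at 5 reads and 39.2% with CGs read in any mouse, and ran from 9.997% to 24.4% with each mouse left out, the highest without the DBA male and 18.9% without the B6 male. The mean body level of 5 genes was 45.1%, became 52.7% at 5 reads and 56.97% with CGs read in any mouse, and ran from 44.8% to 54.5% with each mouse left out, the highest without the DBA female. These shifts follow from the CGs that qualify when a mouse or the minimum changes. Single regions moved more than these means. At 5 reads Dnmt3a's other starts went from 22.6% to 50.3%, the Dnmt3l body from 3.96% to 26.4% and Uhrf1's other starts from 2.54% to 6.43%, and the last were at 7.55% with both strands added. Without the DBA female the Dnmt3l body was at 49.96% and the mean over Uhrf1's other starts at 7.96%, by 1 added CG at 14872 bases (92.9%). Without the DBA male the Dnmt3l body was at 8.16%, the Tet1 body went from 17.7% to 43.3% and the region of other GENCODE Tet1 starts from 5.45% to 47.2%. Without the B6 male the mean over Dnmt3a's other starts was 49.5%, by the 2 added CGs near another start. Depth left 221 of the 1146 CGs for the male parents and 109 for DBA dose. Chromosome sets, with 2 CGs, also need a SNP nearby, and within 5 kb of the genes sorted calls were found for Dnmt3a and Tdg only.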

Other observations

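In an intron of Dnmt3a lay 3 adjacent CGs on the minus strand, 88887, 88904 and 88913 bases from the start. They were low in 3 of the F1 libraries and high in the other libraries with 10 reads. Neither male parent had 10 reads there. At the first of them the level was 92.3% of 13 reads in the B6 female, 94.4% of 18 reads in the DBA female and 91.9% of 62 reads in the BXD male. It was 31.6% of 38 reads in the BXD female, 42.9% of 35 in the DXB female and 33.3% of 39 in the DXB male. The other 2 CGs gave 31.6% to 42.9% in these 3 libraries and 95.1% to 100% in the others with 10 reads. The CGs are close enough to share reads, so they are not independent. A CG on the plus strand, at 88783 bases, had 94.4% of 18 reads in the BXD female. It had 96.2% of 52 reads in the BXD male and 70% of 10 in the DXB male, and no other mouse had 10 reads. The 3 low libraries are all of F1 mice and are those that list fewer cytosines. The part of library, cross or sex in the split was not tested. Of 325 CGs of the set with 10 reads in these 3 libraries and in at least 3 others, these 3 CGs had all 3 libraries below every other by a mean of over 30 points, and 0 had them above. Over 500865 CGs of the series the shares were 0.206% below and 0.107% above.

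Reads sorted by SNP within 500 kb of Mbd2 carried DBA alleles in 46.5% of calls in the BXD male, and in 7.22%, 4.59% and 4.31% in the BXD female, the DXB female and the DXB male. These rest on 2041 DBA and 2351 B6 calls in the BXD male, but on 20, 10 and 10 DBA calls beside 257, 208 and 222 B6 calls in the other 3, and no sorted call lay within 5 kb of Mbd2. At Tdg the same 4 mice had between 42.6% and 51.9% within 5 kb.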
